A study of Homo sapiens with 8 samples.

Results

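The 37 genes described here encode subunits of the Polycomb repressive complexes, the trithorax histone methyltransferases and the enzymes that remove the same histone marks. They were chosen by name, and all 37 were found among the 35940 gene symbols of the table. They were followed in ESI017, a wild-type human embryonic stem cell line, during differentiation toward posterior neural fate. All cells were seeded in mTeSR1, a stem cell medium, with ROCK inhibitor, and were then moved to N2B27, a serum-free neural medium, containing the inhibitors SB and LDN. The ligand WNT3A was given to the cells at 34 h. RNA was collected at 34 h, when WNT3A was given, and at 42, 50 and 72 h, which is 8, 16 and 38 h later. There were 8 libraries, replicates 1 and 2 at each of the 4 time points. An arm without WNT3A was not analysed here, and so time in N2B27 and WNT3A cannot be told apart. The labels speak of an independent biological replicate. All cells came from 1 line, so the p-values measure the spread between these 2 replicates.

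Polycomb repressive complex 2 (PRC2) methylates lysine 27 of histone H3, and Polycomb repressive complex 1 (PRC1) places ubiquitin on histone H2A and compacts chromatin. Trithorax complexes methylate lysine 4 of the same histone H3 and counter this repression at shared targets. In stem cells the promoters of many developmental regulators, HOX genes among them, carry both marks, and in the embryo the HOX clusters are the best known targets of both groups.

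Levels are TPM, the unit of transcript abundance, a share of a library scaled by transcript length. Differences are on the log2(TPM + 1) scale and are called at an adjusted p under 0.05 by limma over all 14908 genes that reached 1 TPM in at least 2 libraries. After a TPM value or a share, ± gives the SD over the 2 libraries, and after a log2 change the SE from limma. The depth of the libraries is unknown, because TPM keeps no read counts. Each library had 13860 to 14004 genes at 1 TPM or more, with 8.70% to 11.2% of its TPM in mitochondrial genes. The pluripotency marker TDGF1 had 764 ± 29.9 TPM in the 34 h libraries and fell to 4.54 ± 2.26 by 72 h (SD, n = 2), and POU5F1 fell from 1159 ± 9.33 to 371 ± 23.5 TPM. Of the other listed markers of the pluripotent state, SOX2, which neural progenitors also express, was raised from 217 ± 8.72 to 340 ± 10.4 TPM (adjusted p 0.00117), and LIN28A had 902 ± 8.13 and 1024 ± 75.8 TPM and did not pass at 72 h. The neural marker SOX1 rose from 1.89 ± 0.363 to 50.8 ± 7.97 TPM. Of 6 mesoderm and endoderm markers, SOX17 was listed at 0 in all libraries. Their summed level was 13.9 ± 1.25, 20.1 ± 2.16, 16.2 ± 1.26 and 2.78 ± 0.349 TPM in time order, ranging from 2.53 to 21.6 TPM over the libraries. Within it, TBXT was raised at 42 h (0.994 ± 0.231 to 9.65 ± 2.45 TPM, adjusted p 0.00149) and at 72 h had 1.74 ± 0.174 TPM, while FOXA2 had 12.7 ± 1.05 TPM at 34 h and was lowered to 0.720 ± 0.205 at 72 h (adjusted p 1.9e-05). That of 3 neural crest markers, none at 0 in all libraries, was 7.36 ± 0.986, 4.08 ± 0.966, 3.39 ± 0.729 and 7.12 ± 0.0503 TPM. Its members went apart at 72 h, with FOXD3 lowered from 4.56 ± 0.127 TPM to a listed 0 in both libraries (adjusted p 0.000239) and PAX3 raised from 0.134 ± 0.190 to 4.53 ± 0.409 TPM (adjusted p 0.000572). That of 3 neuron markers, also with none at 0, was 236 ± 36.7, 275 ± 54.9, 273 ± 46.4 and 193 ± 23.4 TPM. TUBB3 made up most of that sum (235 ± 36.3 TPM at 34 h and 185 ± 23.7 at 72 h, not called), while STMN2 was raised from 0.288 ± 0.0450 to 7.56 ± 0.639 TPM (adjusted p 4.9e-05). The part of such cell types in the results was not tested, and in bulk RNA fewer cells of a type and less RNA per cell cannot be told apart. The summed TPM of the 39 HOX genes was listed at 0 in both 34 h libraries, 4.07 and 3.75 at 42 h, 18.8 and 14.9 at 50 h, then 44.4 and 47.5 at 72 h.

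The 37 genes kept nearly the same summed level while single members moved apart. Their sum was 1906 ± 63.5, 1838 ± 72.3, 1843 ± 17.3 and 1829 ± 14.2 TPM in time order, and no test was made of it. At 42 h against 34 h 2 of the 37 passed the test, PHC1 and JARID2, both lowered; of all tested genes 2.58% passed, 1.78% raised and 0.792% lowered. At 50 h 3 passed, again all lowered, against 6.26% of all genes, 3.52% raised and 2.74% lowered. At 72 h 17 passed, 12 raised and 5 lowered, which is 45.9% of the members against 24.0% of all genes, 12.7% raised and 11.3% lowered. Without any 1 of the 34 h and 72 h libraries the 72 h count was 7 to 10 members, and of all genes as few as 1840 in place of 3578, and without the variance trend it was 10 members. The count at 42 h was 1 without any 1 of the 34, 42 and 72 h libraries, and that at 50 h was 1 without replicate 1 at 34 h or at 50 h. After TMM scaling, a rescaling by trimmed mean log ratios, the 72 h calls were 9 raised and 6 lowered. Over the alternative settings other than leaving a library out, the 72 h count was 10 to 17 members. Calls of all genes were then 2899 to 3601, the fewest being among genes averaging 5 TPM or more. Among genes averaging 5 TPM or more, 2, 3 and 16 of 35 members passed at 42, 50 and 72 h, beside 3.30%, 7.73% and 26.7% of such genes. Between 50 h and 72 h 4 of the 35 passed, beside 9.09%. The median change of the members was 0.09, 0.21 and 0.22 at 42, 50 and 72 h, beside 0.01, 0.04 and 0.06 for all tested genes.

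At 72 h against 50 h 4 of the 37 passed, 1 raised and 3 lowered, beside 7.33% of all genes, 2.92% raised and 4.41% lowered. That count was 1 or 2 without any 1 of the 42, 50 and 72 h libraries. Between 42 h and 50 h limma called 0 of the 37, with 3 at an unadjusted p under 0.05, beside 0.0939% of all genes (14 genes), 0.0604% raised and 0.0335% lowered. With the replicate number as a block 7 genes of the table passed between 42 h and 50 h, and 0 members. By the F-test over all time points 9 members changed, PHC1, KDM6A, JARID2, PHF1, PCGF3, BMI1, EZH2, KDM6B and KDM5B, beside 17.4% of all genes. With either of the 72 h libraries left out the F-test called fewer members, and the share of all genes was not counted in those fits. Of the 26 member calls in the 5 comparisons, 10 held under each of the 18 alternatives tried. Those were PHC1 at 42, 50 and 72 h against 34 h, JARID2, EZH2, PHF1, BMI1, KDM6A and KDM6B at 72 h against 34 h, and KDM6A at 72 h against 50 h. Without the variance trend the 72 h calls of EED, RBBP4, RBBP7, PCGF3, CBX8, PHC2 and KDM5B against 34 h were lost (adjusted p 0.05125 to 0.103). Without the filter on low values those of EED, RBBP4 and CBX8 were (0.0652 to 0.0917), without mitochondrial genes that of RBBP4 (0.0503), and with the compared time points alone that of PCGF3 (0.0598). With those time points alone, the calls of JARID2 at 42 h and 50 h and of KDM5B at 50 h were lost too (0.0879 to 0.139), as were those of PHC1, JARID2 and PHF1 from 50 h to 72 h (0.0707 to 0.135). The heat map of the members by library shows PHC1, JARID2 and KDM6A as the deepest falls.

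**Figure D1:**
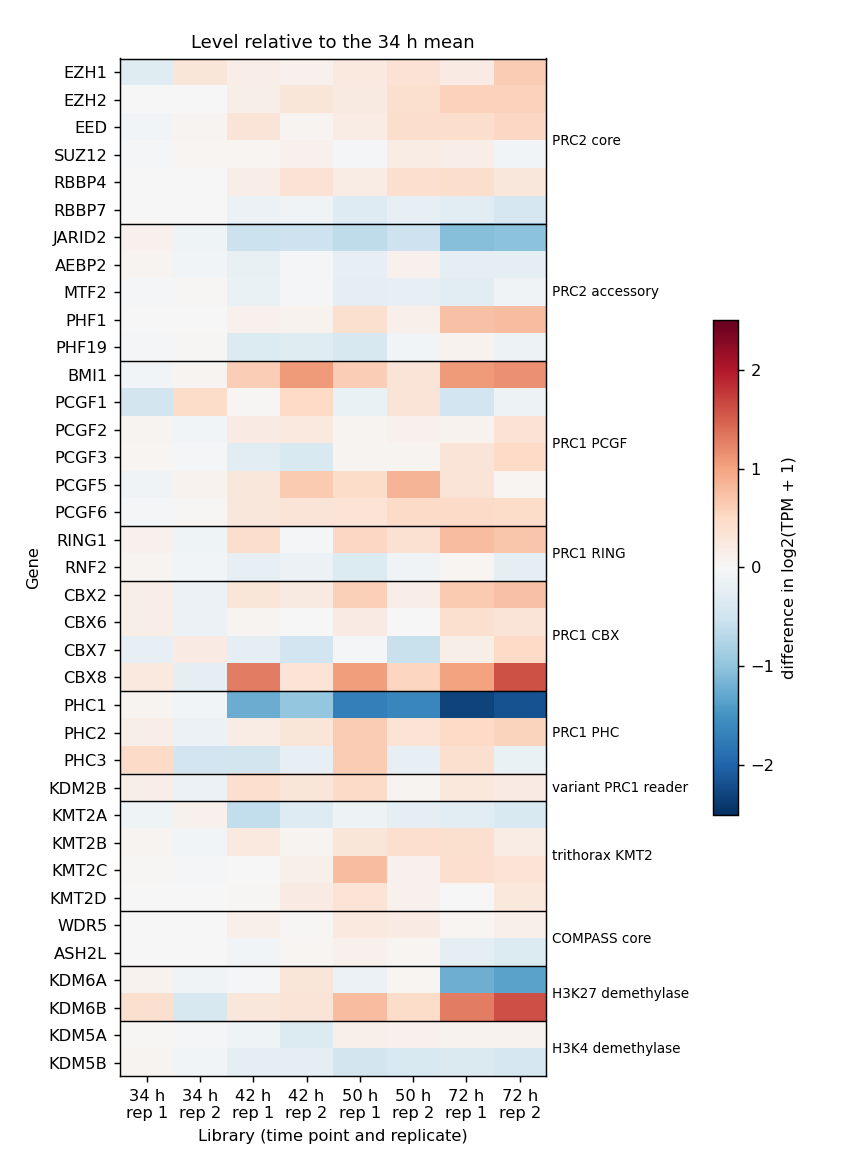
Level of each of the 37 genes (rows, grouped by role) in each of the 8 libraries (columns), as the difference in log2(TPM + 1) from the mean of the 34 h libraries, red for higher and blue for lower. PHC1 is blue in all libraries from 42 h on, KDM6A is deep blue in both 72 h libraries, and KDM6B and BMI1 are red at 72 h.

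**Figure D2:**
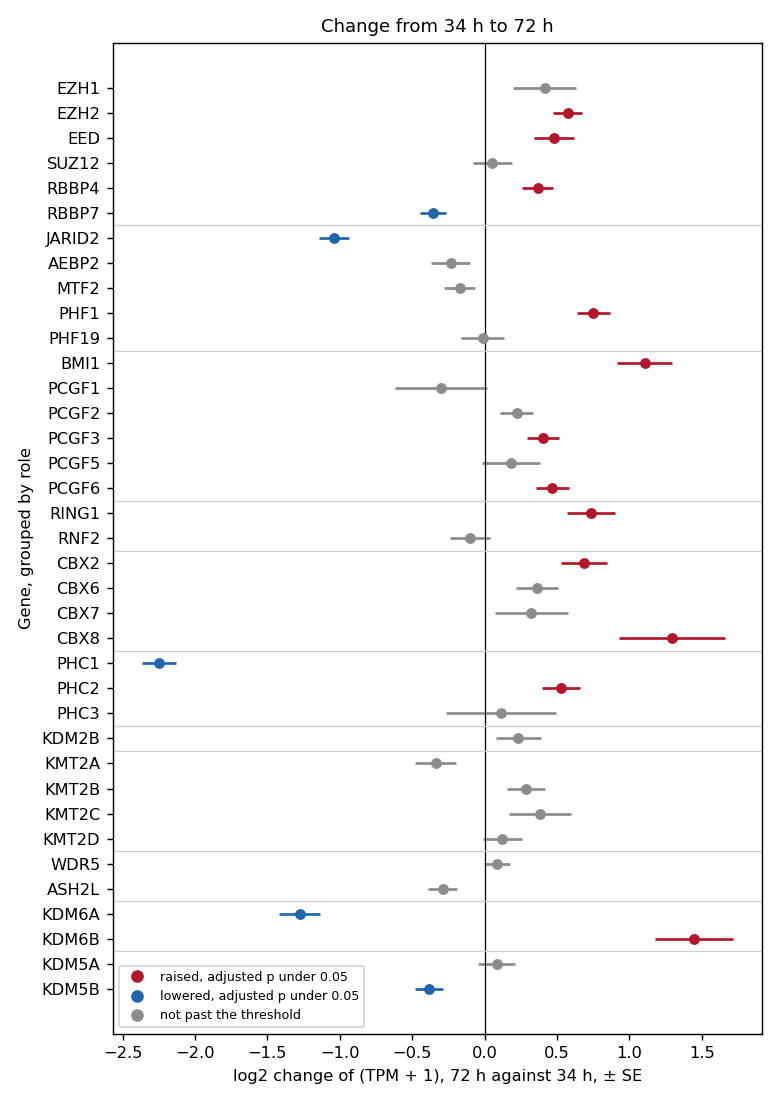
Log2 change of (TPM + 1) from 34 h to 72 h for each gene (points) with its standard error from limma (bars), grouped by role; red and blue points passed an adjusted p under 0.05. The 12 raised genes lie between 0.37 and 1.45 and the 5 lowered genes between -2.25 and -0.36.

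Of the 37 genes, PHC1 had the largest change at 72 h. It is a polyhomeotic subunit of canonical PRC1 that polymerises through its SAM domain and links PRC1 complexes into larger assemblies. PHC1 (chromosome 12, 8913896 to 8941467, plus strand, GRCh38) had 246 and 223 TPM in the 34 h libraries, 99.2 and 119 at 42 h, 71.3 and 75.2 at 50 h, then 46.1 and 51.1 at 72 h. Each time point lay below the one before it in both replicates, and no 2 time points overlapped. The change from 34 h was -1.10 ± 0.12 (SE), -1.66 ± 0.12 and -2.25 ± 0.12 in time order, with adjusted p-values of 0.00181, 0.000160 and 1.07e-05. The further fall from 50 h to 72 h, -0.58 ± 0.12 (adjusted p 0.0210), lost its call without any 1 of the 50 h and 72 h libraries (adjusted p 0.0578 to 0.147).

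A transcribed copy of PHC1 is listed apart. PHC1P1, an annotated pseudogene of PHC1 looked up after the values were seen, had 43.8 and 33.5 TPM at 34 h, 20.6 and 18.3 at 42 h, 15.1 and 13.3 at 50 h, then 9.32 and 11.7 at 72 h. It held 13.0% to 18.6% of the summed level of both in every library. The level of the copy was lower at each time point than at the one before it. How reads were divided between near-identical copies is not given in the sources used here, so the split between PHC1 and PHC1P1 is uncertain.

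PHC2, the paralog with the same SAM domain design, took the opposite course. It had 84.3 and 69.3 TPM at 34 h, 87.4 and 93.9 at 42 h, 119 and 96.7 at 50 h, then 109 and 112 at 72 h, so both 72 h libraries lay above both 34 h libraries. The rise at 72 h was 0.53 ± 0.13 (adjusted p 0.0231). That call was lost without replicate 2 at 34 h or either 72 h library (adjusted p 0.0879 to 0.137). PHC3, the third paralog, had between 4.61 and 11.1 TPM and did not pass in any comparison. PHC1 supplied 73.7% ± 2.04 of the summed PHC transcripts at 34 h and 29.1% ± 1.504 at 72 h. The share of PHC2 went from 24.1% ± 1.07 to 66.3% ± 0.0442. PHC1 was thus the most abundant PHC transcript in all libraries at 34 h and 42 h, and PHC2 in all libraries at 50 h and 72 h. The summed PHC level went from 319 ± 30.1 to 167 ± 3.58 TPM.

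The windows before the start sites of the 3 members that fell most at 72 h are shown because WNT3A acts through TCF/LEF factors, whose sites share a short core. RefSeq sequences (GRCh38.p14) were matched for 34 of the 37 genes, in 52 windows of 250 bases. PHC1 has starts with windows at chr12:8913593-8913842 and chr12:8914259-8914508, both on the plus strand. The JARID2 windows lie at chr6:15245819-15246068 and chr6:15248605-15248854 and the KDM6A window at chrX:44872938-44873187, all on the plus strand. Capitals mark, on either strand, the letters CTTTGAA or the form CTTTGAT, or else the form CTTTGTA or the form CTTTGTT.
PHC1 first start: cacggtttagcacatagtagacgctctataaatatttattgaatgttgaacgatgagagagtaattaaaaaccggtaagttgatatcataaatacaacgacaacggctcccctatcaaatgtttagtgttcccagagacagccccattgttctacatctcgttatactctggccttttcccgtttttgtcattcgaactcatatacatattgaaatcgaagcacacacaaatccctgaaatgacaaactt
PHC1 second start: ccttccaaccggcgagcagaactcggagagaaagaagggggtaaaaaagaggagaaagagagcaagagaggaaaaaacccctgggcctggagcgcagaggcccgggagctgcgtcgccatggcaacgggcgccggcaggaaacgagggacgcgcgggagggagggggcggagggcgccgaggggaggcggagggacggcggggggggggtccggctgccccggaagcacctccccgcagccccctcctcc
JARID2 first start: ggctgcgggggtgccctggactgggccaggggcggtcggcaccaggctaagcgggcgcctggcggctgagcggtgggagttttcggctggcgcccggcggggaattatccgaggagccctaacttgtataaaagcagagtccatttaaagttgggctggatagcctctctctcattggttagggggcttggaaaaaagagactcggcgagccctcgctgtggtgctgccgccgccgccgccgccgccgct
JARID2 second start: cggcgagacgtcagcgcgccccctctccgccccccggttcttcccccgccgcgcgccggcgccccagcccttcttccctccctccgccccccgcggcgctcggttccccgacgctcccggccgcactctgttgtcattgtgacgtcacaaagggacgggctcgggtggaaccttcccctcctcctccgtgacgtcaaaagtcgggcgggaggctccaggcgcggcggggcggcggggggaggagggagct
KDM6A: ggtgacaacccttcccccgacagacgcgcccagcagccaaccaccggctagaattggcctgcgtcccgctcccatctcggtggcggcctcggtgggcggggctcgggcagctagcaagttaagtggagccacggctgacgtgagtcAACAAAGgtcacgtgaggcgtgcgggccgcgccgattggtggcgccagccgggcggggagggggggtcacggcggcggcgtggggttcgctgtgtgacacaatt
KDM6A has 1 match, on the minus strand, which begins 104 bases before the start, and the other windows printed have none. Such letters were in 4 of the 52 member windows (7.69%), in 8.21% of the 15826 windows of tested genes and in 12.0% of all 35116 windows. None of the 15 windows of members raised at 72 h and 1 of the 8 windows of lowered members held a match. The median window held 27.5 CG dinucleotides for the members, 20.0 for the tested genes and 11.0 for all windows. The first PHC1 window held 10 and the second 23. These are descriptions of the letters, with no binding measured.

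Among the PCGF subunits, of which each PRC1 complex holds 1, BMI1 moved most. BMI1 (PCGF4), which with PCGF2 defines canonical PRC1, had 5.40 and 6.06 TPM at 34 h, 9.26 and 13.0 at 42 h, 9.34 and 7.42 at 50 h, then 13.1 and 13.8 at 72 h. All later libraries lay above both 34 h libraries. The change was 1.11 ± 0.19 at 72 h (adjusted p 0.00464), and at 42 h it was 0.84 ± 0.19 and did not pass (adjusted p 0.0728). The readthrough transcript COMMD3-BMI1 is listed apart, with 0 to 3.54 TPM.

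PCGF6, the subunit of a variant PRC1 that holds the MGA and E2F6 DNA-binding factors, had 15.7 and 16.2 TPM at 34 h, 19.5 and 20.3 at 42 h, 20.3 and 22.5 at 50 h, then 22.5 and 22.4 at 72 h. Its later libraries all lay above 34 h, and the rise of 0.47 ± 0.12 at 72 h passed (adjusted p 0.0221). PCGF3, which with PCGF5 defines another pair of variant complexes, had 36.0 and 33.7 TPM at 34 h, 28.8 and 26.4 at 42 h, 36.3 and 36.5 at 50 h, then 43.6 and 49.3 at 72 h. PCGF3 was lowest at 42 h and highest at 72 h, where its rise of 0.40 ± 0.11 passed (adjusted p 0.0346). Both calls were lost without any 1 of the 34 h and 72 h libraries (adjusted p 0.0788 to 0.1004 for PCGF6, 0.0659 to 0.194 for PCGF3). The PCGF3 call was also lost after TMM scaling (adjusted p 0.0527), and after quantile normalization both were (0.0520 for PCGF3, 0.0595 for PCGF6).

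PCGF2, PCGF1 and PCGF5 did not pass in any comparison. PCGF2, also called MEL18, was the most abundant PCGF transcript in every library, with 54.5 to 73.2 TPM, and its mean share of the family was between 38.6% and 42.8%. BMI1 held 4.15% ± 0.227 of the family at 34 h and 7.87% ± 0.350 at 72 h. The PCGF2 values sit in 1 of its 2 Ensembl rows, the one that is not in the GENCODE 29 primary assembly, while the primary row is listed at 0 in all 8 libraries. PCGF1, of the BCOR complex, ranged from 10.6 to 21.6 TPM and PCGF5 from 8.15 to 16.4 TPM.

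RING1 and RNF2 (RING1B) are the paired E3 ubiquitin ligases at the heart of PRC1. RING1 had summed levels of 23.9 and 20.6 TPM at 34 h, 30.3 and 21.5 at 42 h, 32.1 and 29.3 at 50 h, then 38.7 and 36.5 at 72 h. The 72 h libraries lay above all others, and the rise of 0.74 ± 0.17 passed (adjusted p 0.0156). RING1 has 4 Ensembl rows, and which of them held the level differed between libraries. The primary row on chromosome 6 was listed at 0 in 4 of the 8 libraries and held 99.3% of the sum in replicate 2 at 34 h. With rows taken apart the most abundant row did not pass (adjusted p 0.343). Since that row was listed at 0 in some libraries, its test cannot tell the level of RING1 from the split over rows. The call was also lost without replicate 2 at 34 h or either 72 h library (adjusted p 0.0611 to 0.0942). RNF2 had between 33.7 and 44.8 TPM and did not pass. RING1 held 34.1% ± 1.01 of the pair at 34 h and 48.5% ± 2.74 at 72 h.

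Of the CBX subunits, whose chromodomain reads methylated lysine 27, CBX2 and CBX8 were raised at 72 h. CBX2, the compacting form, had 69.8 and 57.3 TPM at 34 h, 78.2 and 73.5 at 42 h, 96.7 and 70.5 at 50 h, then 99.5 and 105 at 72 h. Both 72 h libraries exceeded all earlier ones, with a change of 0.69 ± 0.16 (adjusted p 0.0166). CBX8 had 2.15 and 1.26 TPM at 34 h, 5.52 and 2.40 at 42 h, 4.52 and 2.88 at 50 h, then 4.34 and 7.02 at 72 h. It is among the lowest members, its replicates differed widely, and its change at 72 h was 1.29 ± 0.37 (adjusted p 0.0367). The CBX2 call was lost without replicate 2 at 34 h or either 72 h library (adjusted p 0.0649 to 0.104), and the CBX8 call without any 1 of the 34 h and 72 h libraries (adjusted p 0.0600 to 0.190).

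CBX7, known as the main CBX protein of mouse embryonic stem cells, had 2.60 to 6.46 TPM, and CBX6 had 14.1 to 21.2 TPM. Neither passed in any comparison. CBX2 held between 74.4% and 77.7% of the summed level of these 4 CBX genes at each time point, and CBX7 between 3.09% and 5.21%. KDM2B, which recruits variant PRC1 to unmethylated CpG islands, had 52.5 to 81.6 TPM and did not pass.

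In the PRC2 core the catalytic subunit EZH2 was raised and the histone-binding pair RBBP4 and RBBP7 moved in opposite directions. EZH2 (chromosome 7, 148807383 to 148884321, minus strand) had 65.9 and 66.7 TPM at 34 h, 73.5 and 81.7 at 42 h, 77.3 and 87.6 at 50 h, then 99.3 and 99.2 at 72 h. Both 72 h libraries lay above all others, and the change was 0.57 ± 0.10 (adjusted p 0.00498; 0.58 and 0.57 within the replicates). EZH1, the paralog typical of resting cells, had 12.7 to 25.3 TPM and did not pass (0.41 ± 0.22 at 72 h, adjusted p 0.212). EZH2 held between 80.4% and 82.0% of the EZH transcripts at each time point. EZH2 is a known target of cell cycle factors, and a list of 12 cell cycle genes was followed beside it. At 72 h 3 of the 12 were raised (MKI67, TYMS and TOP2A) and 1 lowered (MCM5), beside 24.0% of all genes called. TYMS went from 142 ± 3.88 to 257 ± 6.54 TPM, a change of 0.85 ± 0.09 (adjusted p 0.000333) that held in 18 of 18 alternatives. The TOP2A call (adjusted p 0.0478) held in 7 of 18 alternatives, and RRM2, not called (0.0597), passed as lowered in 5. MKI67 rose by 0.85 and MCM5 fell by 0.40 (lost without either 34 h library or replicate 1 at 72 h, adjusted p 0.0877 to 0.139), and the summed level of the list was 2082 ± 7.01, 2284 ± 43.8, 2411 ± 17.6 and 2236 ± 62.4 TPM in time order. The part of the cell cycle in the change of EZH2 was not tested.

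EED, a subunit that reads trimethylated lysine 27 and stimulates EZH2, had 24.4 and 27.2 TPM at 34 h, 32.4 and 26.9 at 42 h, 29.4 and 35.3 at 50 h, then 35.3 and 37.3 at 72 h. Its 72 h libraries were the highest, and the change of 0.48 ± 0.14 passed (adjusted p 0.0413). The call was lost without any 1 of the 34 h and 72 h libraries (adjusted p 0.0877 to 0.175), after TMM scaling (0.0605) and after quantile normalization (0.0784). SUZ12, the scaffold of the complex, had 20.5 to 24.5 TPM and did not pass. The transcribed pseudogene SUZ12P1, looked up after the values were seen, had 29.4 to 42.0 TPM, more than SUZ12 in every library, so the split of reads between them is uncertain.

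RBBP4 and RBBP7, histone chaperones shared with other chromatin complexes, were the most abundant members over the 8 libraries. RBBP4 had 239 and 236 TPM at 34 h, 267 and 304 at 42 h, 272 and 316 at 50 h, then 323 and 291 at 72 h. RBBP7 had 244 and 248 TPM at 34 h, 221 and 231 at 42 h, 196 and 213 at 50 h, then 202 and 183 at 72 h. Neither overlapped between 34 h and any later time point. At 72 h RBBP4 was raised by 0.37 ± 0.11 (adjusted p 0.0399) and RBBP7 fell by 0.36 (SE 0.09, adjusted p 0.0211). RBBP4 made up 49.1% ± 0.555 of the pair at 34 h and 61.5% ± 0.0450 at 72 h. The RBBP4 call was lost without any 1 of the 34 h and 72 h libraries (adjusted p 0.0756 to 0.205) and after TMM scaling (0.0640). The RBBP7 call was lost without either 34 h library or replicate 2 at 72 h (adjusted p 0.0770 to 0.139) and after quantile normalization (0.0572).

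The accessory subunits, which sort PRC2 into a PRC2.1 form (MTF2, PHF1 or PHF19) and a PRC2.2 form (JARID2 with AEBP2), had 2 of 5 genes called at 72 h, JARID2 lowered and PHF1 raised, beside 4 of 6 in the core and 24.0% of all genes. Of the core calls, those of EED, RBBP4 and RBBP7 were each lost under several alternatives. JARID2 (chromosome 6, 15246296 to 15522040, plus strand), which binds ubiquitinated H2A and guides PRC2 in stem cells, had 112 and 96.7 TPM at 34 h, 71.1 and 71.8 at 42 h, 66.8 and 72.0 at 50 h, then 49.5 and 50.6 at 72 h. All libraries after 34 h lay below both 34 h libraries, and both 72 h libraries below all others. The change from 34 h was -0.53 ± 0.10, -0.58 ± 0.10 and -1.04 ± 0.10 in time order (adjusted p 0.0356, 0.0148 and 0.000284). From 50 h to 72 h it was -0.46 ± 0.10 (adjusted p 0.0326). The 42 h call was lost without any 1 of the 34, 42 and 72 h libraries (adjusted p 0.0728 to 0.208), and the 50 h call without replicate 1 at 34 h or at 50 h (0.0777 to 0.102). The call between 50 h and 72 h was lost without any 1 of the 42, 50 and 72 h libraries (0.0582 to 0.172).

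PHF1, a PRC2.1 subunit with a Tudor domain that reads methylated lysine 36, was raised late. It had 28.8 and 28.2 TPM at 34 h, 30.8 and 30.3 at 42 h, 37.7 and 31.4 at 50 h, then 48.1 and 49.4 at 72 h. The 72 h libraries stood above all others, and the change was 0.75 ± 0.12 at 72 h against 34 h (adjusted p 0.00289). Against 50 h it was 0.49 ± 0.12 (adjusted p 0.0436), a call lost with the replicate block (0.0502) and without any 1 library except replicate 1 at 50 h (0.0705 to 0.191). PHF1 is the sum of 2 Ensembl rows, of which the primary one held 7.85% to 25.1%. With rows taken apart, the more abundant row passed at 72 h against 34 h (adjusted p 0.0199) and did not against 50 h (0.141).

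MTF2, with 46.4 to 57.1 TPM, PHF19, with 16.7 to 23.8 TPM, and AEBP2, with 21.1 to 27.1 TPM, did not pass in any comparison. JARID2 held 44.1% ± 2.68 of the summed level of the 5 accessory genes at 34 h and 26.1% ± 0.0484 at 72 h. PHF1 held 12.1% ± 0.327 and 25.5% ± 0.0318. The summed PRC2.2 pair went from 129 ± 12.1 to 71.2 ± 0.584 TPM and the PRC2.1 trio from 106 ± 2.47 to 120 ± 2.71 TPM. At 34 h the pair was the larger of the 2 sums, and at 72 h the trio was.

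**Figure D3:**
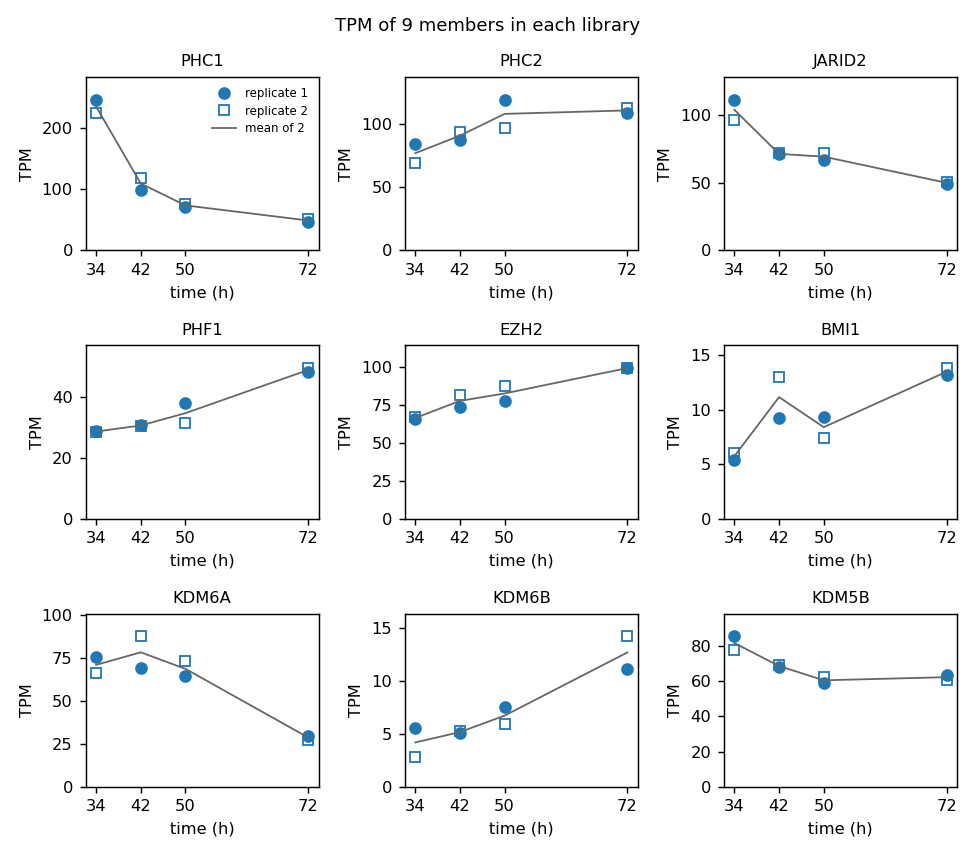
TPM (y axis, from 0) of the 9 members PHC1, PHC2, JARID2, PHF1, EZH2, BMI1, KDM6A, KDM6B and KDM5B against time in h (x axis), with filled circles for replicate 1, open squares for replicate 2 and a line through their means. PHC1 and JARID2 are already lower at 42 h, while KDM6A stays between 64.1 and 87.5 TPM until 50 h and lies at 29.7 and 27.5 TPM at 72 h.

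**Figure D4:**
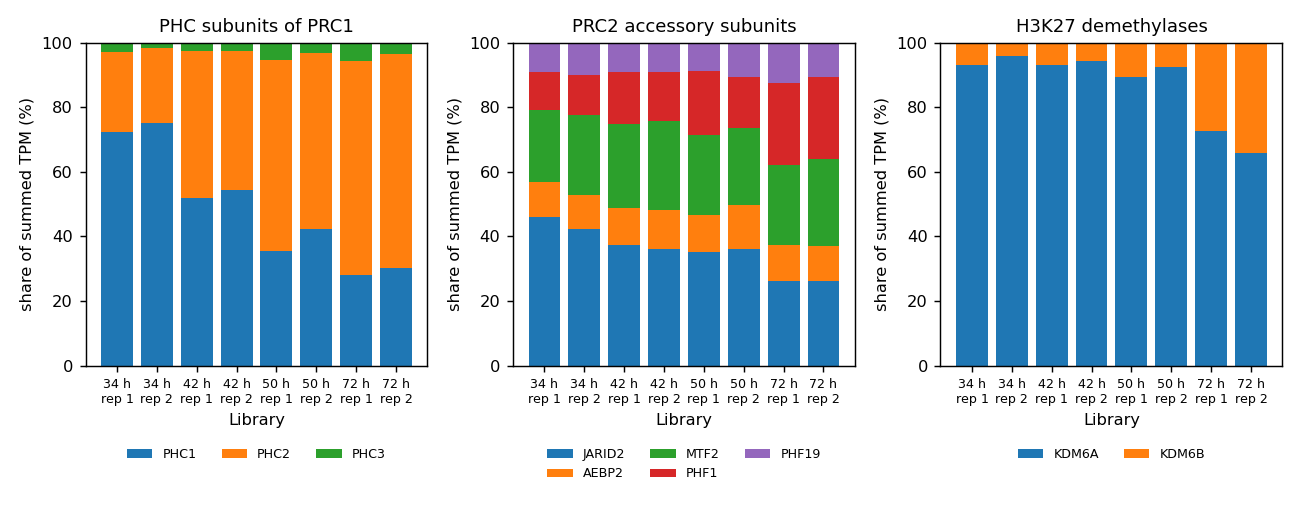
Share of each gene in the summed TPM of its family (y axis, percent) in each library (x axis) for the PHC subunits, the PRC2 accessory subunits and the H3K27 demethylases. PHC2 replaces PHC1 as the larger share from 50 h on, the JARID2 share narrows as that of PHF1 widens, and KDM6B reaches 30.8% at 72 h.

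The 4 trithorax methyltransferases KMT2A to KMT2D did not move past the threshold. KMT2A (MLL1) had 21.2 to 35.8 TPM, KMT2B, known for promoters with both marks, 21.4 to 30.5, KMT2C 8.14 to 14.9 and KMT2D 42.0 to 53.8, the latter pair acting mainly at enhancers. None of the 4 passed in any comparison. At 72 h against 34 h their changes were -0.34 ± 0.14 for KMT2A, 0.29 ± 0.13 for KMT2B, 0.38 ± 0.21 for KMT2C and 0.12 ± 0.14 for KMT2D. KMT2D was the most abundant of the 4 in every library. WDR5 and ASH2L belong to the core that all these enzymes share. WDR5 had 62.9 to 74.9 TPM, the narrowest range of any member as a ratio (1.19-fold from lowest to highest), together with SUZ12. ASH2L had 46.2 and 45.5 TPM at 34 h and 38.7 and 36.0 at 72 h, and its change of -0.29 ± 0.10 did not pass (adjusted p 0.0723) but did after TMM scaling (0.04175) and quantile normalization (0.04203).

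The H3K27 demethylases, which remove the mark PRC2 places, moved in opposite directions between 34 h and 72 h. KDM6A (UTX, X chromosome, 44873177 to 45112602, plus strand), also a subunit of the KMT2C and KMT2D complexes, had 75.6 and 66.1 TPM at 34 h, 68.7 and 87.5 at 42 h, 64.1 and 72.9 at 50 h, then 29.7 and 27.5 at 72 h. The first 3 time points overlapped, and both 72 h libraries lay far below them. The change was -1.23 ± 0.14 from 50 h to 72 h (adjusted p 0.00198; -1.08 and -1.38 within the replicates) and -1.28 ± 0.14 from 34 h (adjusted p 0.000529). At 42 h and 50 h KDM6A did not pass against 34 h (0.13 ± 0.14 and -0.05 ± 0.14). PHC1 and JARID2 had already fallen at 42 h; a difference in timing between these genes was not tested.

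KDM6B (JMJD3), the inducible paralog, had 5.60 and 2.80 TPM at 34 h, 5.10 and 5.26 at 42 h, 7.58 and 5.91 at 50 h, then 11.2 and 14.3 at 72 h. The 72 h libraries were above all others, and the change was 1.45 ± 0.27 (adjusted p 0.00647; 0.88 and 2.01 within the replicates). KDM6A remained the more abundant of the pair, with 94.5% ± 2.01 of their sum at 34 h and 69.2% ± 4.85 at 72 h. The sum itself went from 75.0 ± 8.71 to 41.3 ± 0.566 TPM.

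KDM5B, a demethylase of lysine 4 that is abundant in stem cells, had 85.7 and 77.9 TPM at 34 h, 68.4 and 69.0 at 42 h, 59.0 and 62.2 at 50 h, then 63.7 and 61.0 at 72 h. All later libraries lay below both at 34 h, by -0.43 ± 0.10 at 50 h (adjusted p 0.0373) and -0.38 ± 0.10 at 72 h (adjusted p 0.0220). The 50 h call was lost without any 1 of the 8 libraries (adjusted p 0.0671 to 0.1875), and the 72 h call without replicate 1 at 34 h or either 72 h library (0.0791 to 0.120). KDM5A, its paralog, had 13.9 to 19.5 TPM and did not pass. The 20 members that passed in no comparison had changes between -0.34 and 0.41 at 72 h against 34 h.

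A further list of 37 genes, other subunits, partners and related chromatin regulators, of which 36 were tested, gave 2 raised at 42 h, 3 raised at 50 h, then 7 raised and 3 lowered at 72 h, against 2.58%, 6.26% and 24.0% of all genes called at these times. The 72 h count was lower without any 1 of the 34 h and 72 h libraries, and was not set beside the share of all genes in those fits. Over the other alternatives it was 7 to 11, beside 2899 to 3601 of all genes in place of 3578. Its median changes were 0.09, 0.09 and 0.22. The 5 with a change of at least 1 were EPOP, ASXL1, YAF2, BCORL1 and NCOA6, all raised. The other 5 calls at 72 h were smaller and are named outside that rule, after their values were seen. The related methyltransferase SETD1B was raised by 0.49 ± 0.14 (adjusted p 0.0413), and DPY30, a core subunit like WDR5 and ASH2L, was lowered by -0.50 ± 0.11 (adjusted p 0.0121). The SETD1B call was lost without any 1 of the 34, 42 and 72 h libraries (adjusted p 0.0521 to 0.208) and after TMM scaling (0.0537). The DPY30 call was lost without either 34 h library or replicate 2 at 72 h (0.0592 to 0.0817). PAGR1, a subunit of the KMT2C and KMT2D complexes, was raised by 0.46 ± 0.12 (adjusted p 0.0309), AUTS2, of a variant PRC1, was lowered by -0.46 ± 0.13 (0.0330), and the acetyltransferase KAT7 by -0.38 ± 0.11 (0.0411). The PAGR1 and KAT7 calls were lost without any 1 of the 34 h and 72 h libraries, and the AUTS2 call without replicate 1 at 34 h or either 72 h library (adjusted p 0.0890 to 0.165 over the 3 genes).

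EPOP, a PRC2.1 partner that binds elongin and is known from stem cells, had 5.64 and 5.48 TPM at 34 h, 25.6 and 21.0 at 42 h, 43.6 and 31.1 at 50 h, then 59.9 and 67.0 at 72 h. No 2 time points overlapped, and the change was 1.88 ± 0.18, 2.53 ± 0.18 and 3.29 ± 0.18 in time order (adjusted p 0.00117, 0.000160 and 1.23e-05). Its rise from 50 h to 72 h, 0.77 ± 0.18 (adjusted p 0.0381), lost its call without either 34 h library, replicate 2 at 50 h or either 72 h library (adjusted p 0.0610 to 0.190). Counted with the 5 accessory members, EPOP held 2.30% ± 0.0475 of their summed level at 34 h and 24.9% ± 1.18 at 72 h, when JARID2 held 19.6% ± 0.344.

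ASXL1, the partner of the H2A deubiquitinase BAP1, had 17.0 and 18.5 TPM at 34 h, 19.0 and 23.4 at 42 h, 37.2 and 37.1 at 50 h, then 53.9 and 50.7 at 72 h. It was above 34 h in every later library, by 1.03 ± 0.13 at 50 h and 1.51 ± 0.13 at 72 h (adjusted p 0.00270 and 0.000131). YAF2, a variant PRC1 subunit, had 2.30 and 3.30 TPM at 34 h and 7.84 to 10.5 TPM in the later libraries, a change of 1.31 ± 0.20 at 42 h (adjusted p 0.0130) and 1.45 ± 0.20 at 72 h (adjusted p 0.00168). The 42 h call of YAF2 was lost without replicate 1 at 34 h or either 42 h library (adjusted p 0.0786 to 0.0924). BCORL1, of the PCGF1 complex, had 5.47 and 3.36 TPM at 34 h and 11.2 and 13.5 at 72 h (1.33 ± 0.21, adjusted p 0.00325). NCOA6, a subunit of the KMT2C and KMT2D complexes, had 7.89 and 6.05 TPM at 34 h and 16.8 and 17.6 at 72 h (1.20 ± 0.18, adjusted p 0.00225).

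**Figure D5:**
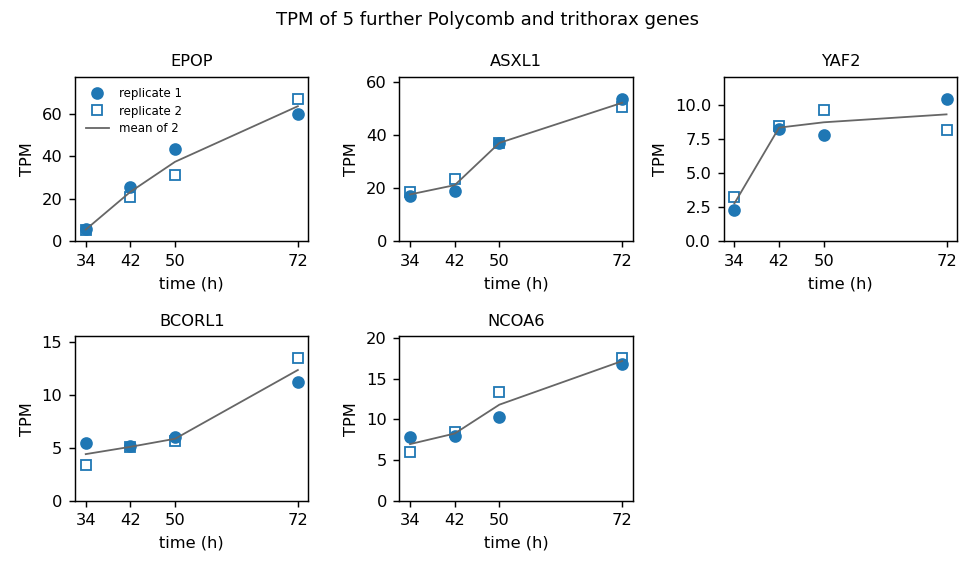
TPM (y axis, from 0) of EPOP, ASXL1, YAF2, BCORL1 and NCOA6 against time in h (x axis), with filled circles for replicate 1, open squares for replicate 2 and a line through their means. EPOP and YAF2 are above their 34 h values at 42 h, while both 72 h libraries of BCORL1 and NCOA6 lie above all earlier ones.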

How the data were processed

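The authors deposited 1 table of TPM per Ensembl gene with 1 column per library, and each column summed to 1000000. Salmon 1.9.0 and GRCh38 are named in the submitters' processing notes. The annotation, the step from transcripts to genes, the handling of near-identical copies and any filter are not given in the sources used here. Per the labels' protocols, sequencing was paired-end on poly(A)-selected RNA. The 37951 rows were summed to 35940 symbols. Among the members, RING1, PHF1 and PCGF2 had more than 1 row. Positions are those of GENCODE 29, and promoter windows are those of RefSeq (GRCh38.p14).

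Of all symbols, 14908 had 1 TPM or more in 2 or more libraries and were tested, among them 37 of 37 members. Values were log2(TPM + 1), which understates changes of low genes. limma 3.58.1 (R 4.3.3) fitted the 8 libraries jointly, with a mean for each time point, a variance trend and Benjamini-Hochberg adjustment over all tested genes, two-sided. The script was tested on simulated data. An exact permutation test was not used, since its smallest p is 0.333 with 2 libraries a group. Members, lists and tests were chosen with earlier results of these data known. The naming rule was to describe all members, those called in any comparison with each library, and of the further list the called genes with an absolute log2 change of at least 1. Other genes named were chosen after their values were seen.

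The labels give the replicate number as a batch, which would pair libraries across time. Differences between replicates 1 and 2 correlated across genes at 0.0949 to 0.195 among 34, 42 and 50 h, and at -0.104 to -0.0445 between 72 h and the others. Calls that the block fit changes are given with the alternatives. Alternatives were another pseudocount (0.1), no filter, a mean of at least 5 TPM, TMM and quantile scaling, no mitochondrial genes, no variance trend, compared time points alone, the replicate block, Ensembl rows apart and each library left out.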

Additional observations from a re-analysis of the deposited data

How the results depend on the processing

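Leaving out 1 library leaves a time point with 1 library, assumed to vary like the others. Over the 8 such fits, the calls of all genes ranged from 160 to 385 (42 h), 412 to 809 (50 h) and 1840 to 3661 (72 h) against 34 h, from 1 to 8 for 50 h against 42 h, and from 319 to 929 for 72 h against 50 h. Member calls ranged from 1 to 2, 1 to 2, 7 to 17, 0 to 0 and 1 to 3, those of the F-test from 3 to 10, and those of the further list from 1 to 2 at 42 h and 5 to 10 at 72 h. With the compared time points alone, all-gene calls were 171, 431, 0 (50 h against 42 h) and 367 (72 h against 50 h), member calls 1 each for 42 h and 50 h against 34 h and 1 for 72 h against 50 h, and further-list calls 1 at 42 h. Without the filter, 8 genes passed at 50 h against 42 h, and 1 member and 1 further gene at 42 h. Without the variance trend, 27 genes passed at 50 h against 42 h, and members numbered 1 (42 h) and 10 (72 h) against 34 h, with 1 for 72 h against 50 h. For 50 h against 42 h, 24 genes passed at a mean of at least 5 TPM, 4 with Ensembl rows apart and 7 with the replicate block, and 18 after TMM scaling (9 raised, 9 lowered) in place of 14 (9 raised, 5 lowered). With the replicate block the further list had 11 calls at 72 h in place of 10. The replicate block ended 1 member call, PHF1 at 72 h against 50 h, and changed no other between time points, while the F-test then called 10 members in place of 9. Among the other listed genes it ended the calls of STMN2 at 42 h (adjusted p 0.0604), MKI67 (0.0510) and LIN28A (0.0531) at 50 h and MIXL1 from 50 h to 72 h (0.0697), and added TDGF1 at 42 h (0.0349) and BAP1 (0.0377) and RRM2 (0.0470) at 72 h. Over all listed genes and comparisons called in at least 1 fit, 1343 alternative values kept their side of the threshold, 269 lost it, 27 gained it and 0 changed sign. Of the gains, 2 were in a member, ASH2L. A fit without 1 library has fewer residual degrees of freedom, and why calls were lost was not tested. Depth is unknown, so no detection limit was set.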

Other observations

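Sums by role give values not used above. The 6 PRC2 core genes summed to 614 ± 9.62 TPM at 34 h and 679 ± 32.8 at 72 h, and all 11 PRC2 genes to 850 ± 0.0096 and 871 ± 29.5 TPM. The 6 PCGF genes summed to 138 ± 3.59 and 171 ± 13.8 TPM, the 4 CBX genes to 85.3 ± 10.8 and 134 ± 6.01 TPM, and the 4 KMT2 genes to 107 ± 1.74 and 112 ± 1.77 TPM. No test was made of these sums. In RING1, row ENSG00000231115 held 23.8 TPM in replicate 1 at 34 h and a listed 0 in replicate 2, where row ENSG00000204227 held 20.4 TPM; both were named after their values were seen. SUZ12P1 held 57.4% to 67.2% of the summed level of SUZ12 and SUZ12P1.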
